A study of Arabidopsis thaliana with 6 samples.

Results

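Cyclins are the regulatory subunits of cyclin-dependent kinases (CDKs), and they are described here by class in young leaves of *Arabidopsis thaliana*. Members were the protein-coding genes whose symbol or synonym begins with CYCA, CYCB, CYCC, CYCD, CYCH, CYCL, CYCP or CYCT followed by a digit, read without regard to letter case. The rule found 42 members among the 27444 protein-coding genes of the nuclear genome: 10 CYCA, 10 CYCB, 10 CYCD, 7 CYCP and 5 CYCT genes. No gene in the reference table fitted CYCC, CYCH or CYCL with a digit directly after the letter. The members were not chosen by their measured values.

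All plants were wild-type accession Columbia-0, grown in soil at 22.5 °C under a short-day cycle of 8 h light and 16 h dark, and the labels give the age of the leaves only as young. Chromatin immunoprecipitation was performed in 2 samples for trimethylation of histone H3 at lysine 4 (H3K4me3) and in 2 samples for trimethylation at lysine 27 (H3K27me3), beside 1 input DNA sample, and mRNA was sequenced in 1 sample. For each mark, 1 list of enriched domains stood for the whole series, and mRNA was given as the average read coverage of the exon bases of a gene, called depth below. The spread between replicates therefore could not be measured, no value below has a replicate error, and no test was made.

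A and B cyclins act from DNA replication to mitosis, with B cyclins accumulating around the entry into mitosis. D cyclins act in G1, where their kinases phosphorylate the retinoblastoma-related protein and release E2F transcription factors. T cyclins partner CDKC kinases, which phosphorylate RNA polymerase II, and P cyclins resemble the yeast cyclin PHO80 of phosphate signalling. H3K4me3 is found near the start of transcribed genes, and H3K27me3 is the mark set by Polycomb Repressive Complex 2. In a growing leaf, cells divide in an early phase and then expand, so dividing cells are a part of the tissue only.

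A gene was assigned a mark if the mark's domains overlapped its body by 150 bases or more. H3K4me3 was found on 26 of the 42 cyclins (61.9%), against 64.4% of all protein-coding genes. H3K27me3 was found on 6 cyclins (14.3%), against 31.0% of all genes. By mark class, 22 cyclins carried H3K4me3 alone (background 54.2%), 2 carried H3K27me3 alone (background 20.8%), 4 carried both (background 10.1%) and 14 carried neither (33.3% of the cyclins, background 14.8%). Against all protein-coding genes, the cyclins thus had a near-background share of H3K4me3 under this call. Their share of H3K27me3 was lower and their share of genes without a mark was higher. Of the genes listed in the mRNA table, 84.1% carried H3K4me3 and 18.4% H3K27me3. All 26 cyclins with H3K4me3 were among the 38 cyclins listed there, so the H3K4me3 share of listed cyclins was below that of listed genes. With only the domains that reached the median score of their list, the H3K4me3 share was also lower, at 19.0% against 36.0%.

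The mRNA table listed 38 of the cyclins (90.5%, background 72.9%), but at shallow depth. The lowest depth in that table is 1, and 5 cyclins stood exactly there. The median over listed cyclins was 1.89, against 6.92 over all listed protein-coding genes. A depth of 10 was reached by 4 cyclins (background 28.3%), and 24 of the 38 listed were below 3 (63.2%, against 28.6% of all listed genes). Depth is given as an average per exon base, but no value lies below 1. Whether exon bases without reads entered the average is therefore not known. The order of genes near a depth of 1, above all of genes that differ in length, is uncertain, and the sampling error is unknown. In a whole-leaf sample, fewer cells that express a gene and less RNA per cell cannot be told apart. The leaf markers CAB1, RBCS1A, LHCB3 and RCA had depths from 3998 to 22244. Of 8 markers of root hairs, seeds, pollen and flowers, 2 were listed, at 1.00 (VGD1) and 1.41 (AG). None of the shoot meristem markers STM, WUS and CLV3 was listed.

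**Figure D1:**
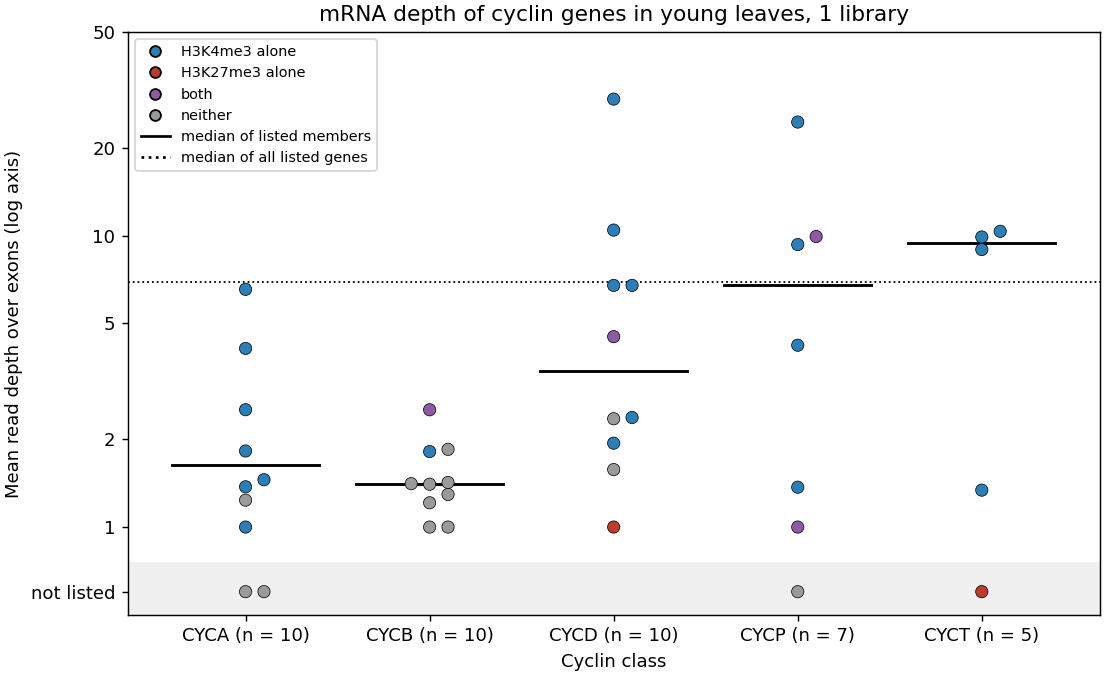
Mean read depth over exons (log axis) of each of the 42 cyclin genes by class, with colour for the mark class, solid lines for the median of listed members, a dotted line for the median of all listed genes and a grey band for genes that are not listed. All CYCB genes lie between 1.00 and 2.53, and the highest points are a CYCD3 gene at 29.5 and a CYCP1 gene at 24.6.

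The classes differed in how many members lacked both marks. This was so for 8 of 10 CYCB genes, 3 of 10 CYCA, 2 of 10 CYCD, 1 of 7 CYCP and 0 of 5 CYCT genes. H3K4me3 was on 2 of 10 CYCB genes and on 24 of the 32 other cyclins. Over all protein-coding genes, 64.4% carried H3K4me3 and 14.8% had neither mark. The gap between CYCA and CYCB depended on how a mark was called. Under a limit of 50% of the body, all 10 genes of both classes had neither mark, against 63.85% of all genes. H3K4me3 covered at most 45.1% of a CYCA body and 37.1% of a CYCB body, so it could not separate the classes at this limit. When weaker domains, those under the median score of their list, were dropped, 9 of 10 had neither mark in both classes, against 43.5% of all genes. The gene left with a mark was CYCA3;4, with H3K4me3 alone, in CYCA and CYCB1;5, with H3K27me3 alone, in CYCB. No test was made of the differences between classes, which rest on few genes that share ancestry.

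Depth was set beside these counts. Of all 5720 genes listed below a depth of 3, 56.2% carried H3K4me3, and by class 40.1% carried H3K4me3 alone, 20.8% H3K27me3 alone, 16.1% both and 23.0% neither. The 24 cyclins in that range split into 10 with H3K4me3 alone, 1 with H3K27me3 alone, 2 with both and 11 with neither. In this range 5 of 6 CYCA genes but 2 of 10 CYCB genes carried H3K4me3, while the median depth was 1.41 in each class. The remaining 14 listed cyclins had a depth of 3 or more and all carried H3K4me3 (background 95.3%), 12 of them alone (background 86.3%) and 2 with H3K27me3 (background 8.94%). None of those 14 carried H3K27me3 alone (background 2.09%) or neither mark (background 2.66%).

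**Figure D2:**
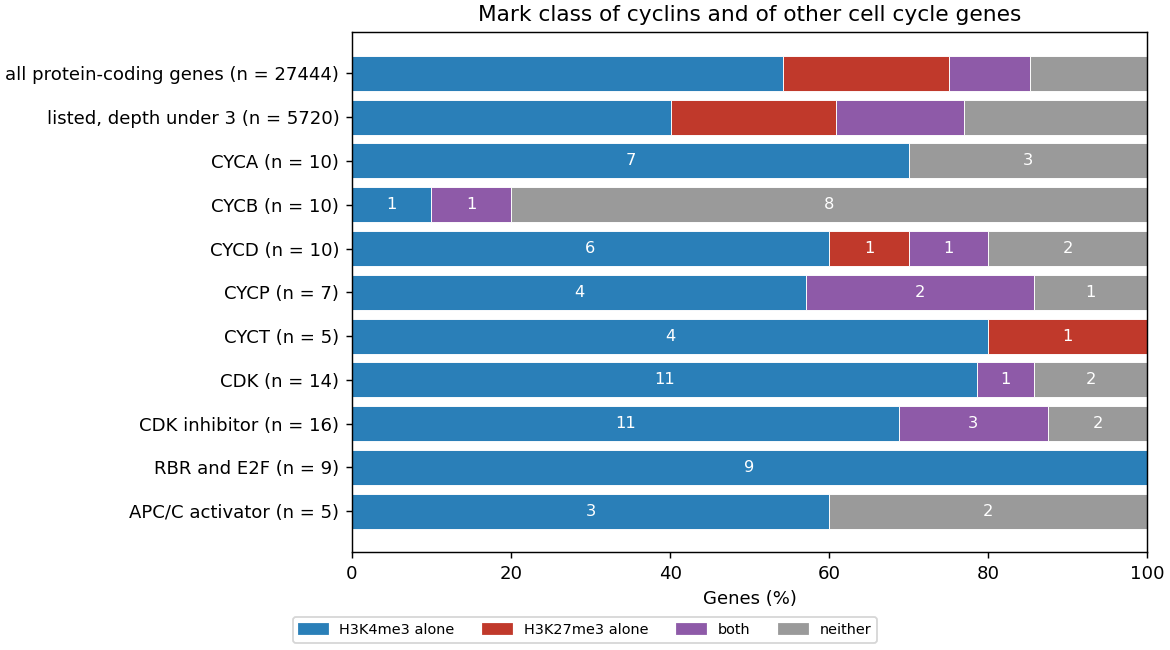
Share of genes with H3K4me3 alone, H3K27me3 alone, both or neither in each cyclin class and in 4 lists of other cell cycle genes, with the number of genes printed in the segments of these lists. The top bars give all 27444 protein-coding genes and the 5720 listed below a depth of 3, and the CYCB bar has 8 of 10 genes in the grey segment without a mark.

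B cyclins were all listed in the mRNA table, at depths from 1.00 to 2.53 with a median of 1.41. CYCB1;1 (AT4G37490), whose promoter is widely used to report cells at G2 and mitosis, had a depth of 1.29 and no domain of either mark. CYCB1;3 (AT3G11520, depth 1.41) and CYCB1;4 (AT2G26760, depth 1.85) also had neither mark. So did every CYCB2 gene. CYCB2;1 (AT2G17620) and CYCB2;2 (AT4G35620) stood at the lowest depth of 1.00, CYCB2;3 (AT1G20610) at 1.42 and CYCB2;4 (AT1G76310) at 1.21. CYCB3;1 (AT1G16330), the only member of its subclass, had a depth of 1.40 and neither mark. These 8 genes all lay between percentile 3.59 and percentile 18.7 of the depths of listed protein-coding genes.

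Both exceptions among the B cyclins were CYCB1 genes. CYCB1;2 (AT5G06150, listed in the reference as CYC1BAT) had a depth of 1.82 and 900 bases of H3K4me3, 37.1% of its body, in a domain on chromosome 5 (1860751 to 1861650, TAIR10). Its depth was slightly below that of AT2G26760, which had no mark, so the domain did not separate these genes by depth. The score of this domain stood at percentile 23.7 of the H3K4me3 list. CYCB1;5 (AT1G34460) was the deepest B cyclin at 2.53 and carried both marks. Its annotated body of 7270 bases is the longest of the 42 and overlaps a long noncoding RNA locus by 347 bases. H3K4me3 covered 1050 bases of it and H3K27me3 covered 2191 bases in 3 domains, with 750 bases under both marks.

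The unmarked cyclins were then searched for domains outside the gene body. The nearest H3K4me3 domain lay from 99 to 5008 bases away from the 8 unmarked B cyclins, with a median of 448.5. Each of these domains lay over its full width in another gene, which was the adjacent protein-coding gene for 6 of the 8 and a more distant one for 2. The domain 99 bases from AT4G35620 was on PSAT (AT4G35630, depth 17.2), and the one 128 bases from AT2G17620 was on AT2G17630 (depth 7.35). A gap of 385 bases separated AT3G11520 from a domain on AT3G11510 (depth 123.2). Of the 8 unmarked B cyclins, 4 had H3K4me3 on both adjacent protein-coding genes, 3 on 1 of them and 1 on neither, against 43.3%, 42.2% and 14.5% of all protein-coding genes. Over all genes with neither mark, these shares were 39.9%, 40.8% and 19.2%. The nearest H3K27me3 domain was 1695 to 22258 bases away from these B cyclins, with a median of 6623. No background is given here for the distances.

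A cyclins carried H3K4me3 alone on 7 of 10 genes, against 54.2% of all and 73.1% of listed protein-coding genes. None carried H3K27me3, against 31.0% and 18.4%, and the A cyclins differed by subclass. In CYCA3, whose members are expressed mainly around G1 and S phase, CYCA3;2 (AT1G47210) was the deepest A cyclin at 6.55, with 750 bases of H3K4me3 or 33.7% of its body. CYCA3;4 (AT1G47230) followed at 4.11 with 1027 bases (45.1%), the widest H3K4me3 among A cyclins, from a domain at percentile 73.7 of the scores. CYCA3;1 (AT5G43080) had a depth of 2.53 and 450 bases of H3K4me3. CYCA3;3 (AT1G47220) was not listed and had neither mark, although AT1G47210 and AT1G47230 are its adjacent genes on chromosome 1. The 3 neighbours therefore did not share a state, with H3K4me3 and listed mRNA on the outer genes and neither in the middle. Its nearest H3K4me3 domain, 1353 bases away, was that of AT1G47230.

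CYCA2 genes, which act with B-type CDKs to restrain the switch to endoreduplication, were shallower. CYCA2;3 (AT1G15570) had a depth of 1.82 and 450 bases of H3K4me3, 12.2% of its body, and it overlaps the auxin response gene IAA5 by 48 bases. CYCA2;2 (AT5G11300, listed as CYC3B) had a depth of 1.45 and also 450 bases (11.7%). CYCA2;4 (AT1G80370) had a depth of 1.24 and neither mark, although a domain 98 bases away lay on its neighbour AT1G80380 (depth 114.3). This was the smallest gap among the 14 unmarked cyclins. CYCA2;1 (AT5G25380) was not listed and had neither mark, and its nearest H3K4me3 domain was 3463 bases away on SHN3. Where CYCA2 genes had H3K4me3, it was thus narrow against the median of 750 bases over all marked genes. This was not particular to CYCA2. The median was also 450 bases over all marked A cyclins, and it was 600 bases over all marked genes listed below a depth of 3.

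In CYCA1, CYCA1;1 (AT1G44110) had a depth of 1.37 and 300 bases of H3K4me3 from a domain at percentile 5.09 of the scores. CYCA1;2 (AT1G77390), known as TARDY ASYNCHRONOUS MEIOSIS for its part in meiosis, had the lowest listed depth of the class at 1.00 and yet 600 bases of H3K4me3, 22.8% of its body. The shallowest listed A cyclin therefore had more H3K4me3 than the CYCA2 genes.

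D cyclins were all listed and spanned the widest range of the 5 classes, from 1.00 to 29.5 with a median of 3.44. The CYCD3 genes, which act downstream of cytokinin and prolong cell division in leaves, all carried H3K4me3. CYCD3;2 (AT5G67260) was the deepest of the 42 cyclins at 29.5, at percentile 85.4 of listed protein-coding genes, with 1050 bases of H3K4me3 (30.4%). It overlaps AT5G67265, which had a depth of 1.00, by 220 bases. CYCD3;3 (AT3G50070) had a depth of 6.76 and 600 bases of H3K4me3 (35.3%). CYCD3;1 (AT4G34160) had a depth of 4.51 and carried both marks over the same 600 bases of chromosome 4 (16358701 to 16359300), 28.0% of its body. Among CYCD3 genes it was both the shallowest and the only member with H3K27me3.

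Other D cyclins with H3K4me3 alone covered a wide range of depth. CYCD1;1 (AT1G70210) had a depth of 10.5 with 600 bases of H3K4me3. CYCD2;1 (AT2G22490) had a depth of 6.76 with 900 bases, in a domain whose score stood at percentile 82.8 of the H3K4me3 list. CYCD5;1 (AT4G37630) also carried 900 bases, at a depth of 2.38, so equal H3K4me3 coverage came with unequal depth. CYCD6;1 (AT4G03270), which drives formative divisions of the root ground tissue, had a depth of 1.94 and 450 bases of H3K4me3 in 2 domains. Its body shares 847 bases (42.0%) with AT4G03260, which had a depth of 63.4, so mRNA reads there may belong to either gene. Neither H3K4me3 domain on AT4G03270 reached into AT4G03260. These domains ranked low, the weaker one at percentile 2.32 of the scores, the lowest rank on any cyclin.

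The remaining D cyclins had no H3K4me3, and act in the stomatal lineage. CYCD4;1 (AT5G65420, depth 1.58) and CYCD4;2 (AT5G10440, depth 2.35) had neither mark. Their nearest H3K4me3 domains were 4419 and 2236 bases away, on HB25 and AGP4, and H3K27me3 domains were 2469 and 2086 bases away. CYCD7;1 (AT5G02110), which acts in the last division of that lineage, was the shallowest D cyclin at 1.00. It carried H3K27me3 alone over 1584 bases, 90.5% of its body. That domain, on chromosome 5 (416701 to 418500), ranked at percentile 88.4 of the H3K27me3 scores.

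**Figure D3:**
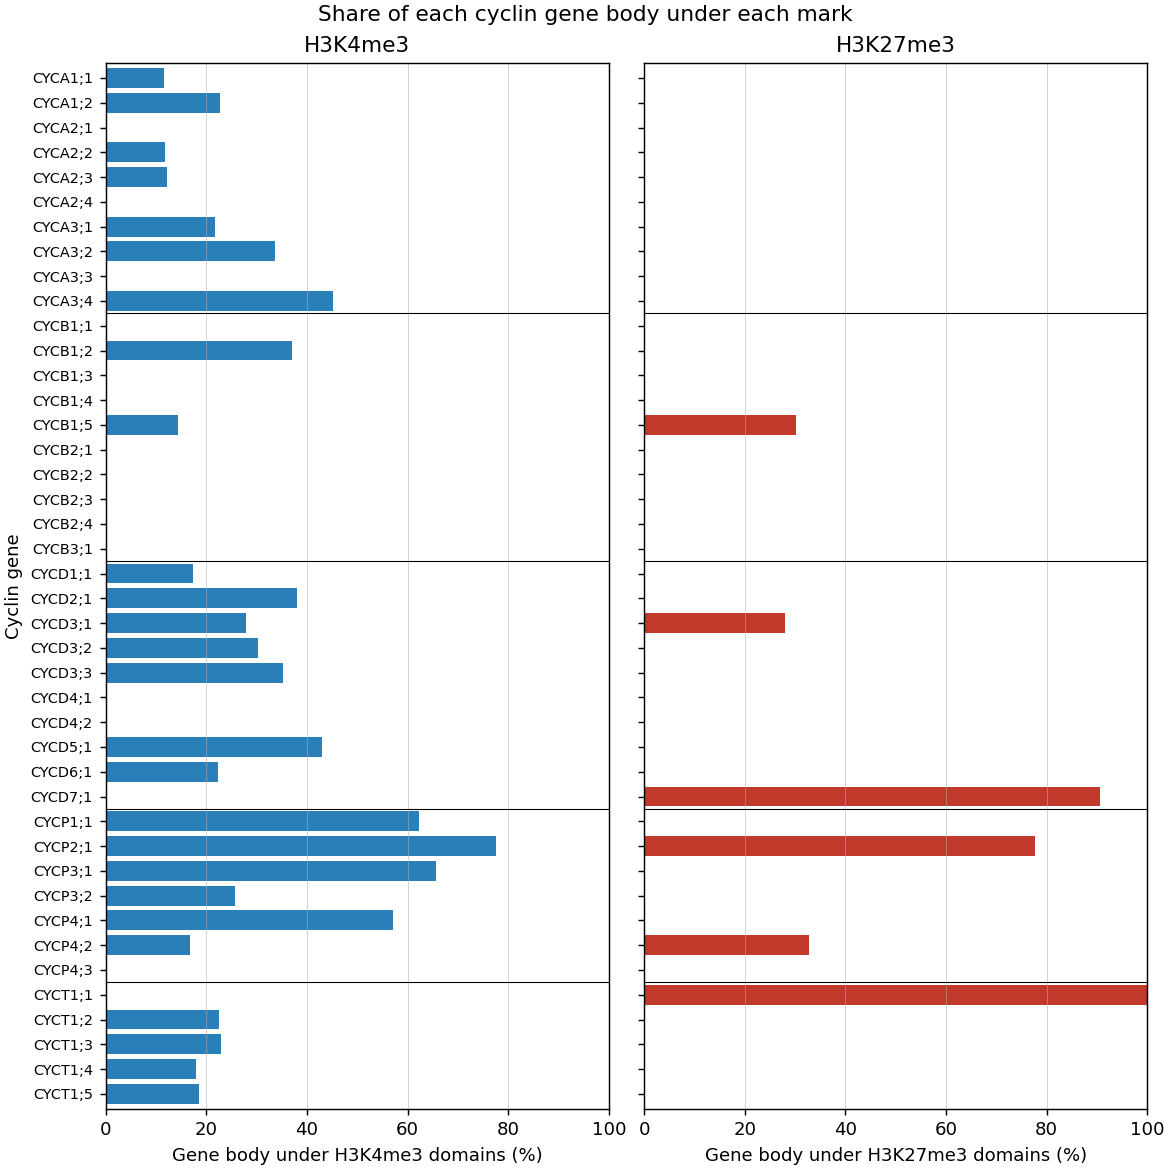
Share of each cyclin gene body (percent) under H3K4me3 domains (left) and H3K27me3 domains (right), 1 bar per gene, with lines between the classes. The H3K4me3 panel is nearly empty in the CYCB block, and the longest H3K27me3 bars reach 100% in a CYCT1 gene, 90.5% in the CYCD7 gene and 77.6% in the CYCP2 gene.

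P cyclins carried H3K4me3 on 6 of 7 genes (85.7%), near the 84.1% of listed protein-coding genes (64.4% of all). Their median depth was 4.21. It was 6.77 over the listed P cyclins alone, and also 6.77 without AT5G61650, a member that overlaps another gene. CYCP1;1 (AT3G63120) was next to the deepest cyclin at 24.6 and had the widest H3K4me3 of all 42, 1200 bases or 62.3% of its body, from the top-ranked H3K4me3 domain on a cyclin (percentile 84.4). CYCP4;1 (AT2G44740) had a depth of 9.33 with 900 bases in 2 domains. CYCP3;1 (AT2G45080) had a depth of 4.21 with 723 bases, and CYCP3;2 (AT3G60550) had a depth of 1.37 with 300 bases. CYCP4;3 (AT5G07450) was not listed and had neither mark, and its nearest H3K4me3 domain was 1340 bases away on GDH2. P cyclin bodies are short, with a median of 1167 bases against 2388.5 over all cyclins, so a domain of given width fills more of the body. H3K4me3 covered a median of 59.7% of the body in marked P cyclins and 20.6% in marked T cyclins.

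The other P cyclins carried both marks. CYCP2;1 (AT3G21870) had a depth of 9.94 and 900 bases under both marks, 77.6% of its body, with identical domain limits on chromosome 3 (7704001 to 7704900). Its depth was the highest of the 4 cyclins with both marks, which otherwise had 4.51, 2.53 and 1.00. CYCP4;2 (AT5G61650) was the shallowest P cyclin at 1.00, with 300 bases of H3K4me3 and 589 of H3K27me3. It shares 1293 bases (71.9% of its body) with AT5G61660, which had a depth of 58.6 and lay under the same domains. Which of these genes the marks belong to was not tested.

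T cyclins had the highest class median depth, 8.97, which was 5.15 without AT5G45190, a member found by a synonym. CYCT1;5 (AT5G45190) had a depth of 10.4 with 900 bases of H3K4me3, CYCT1;3 (AT1G27630) a depth of 9.91 with 750 bases and CYCT1;4 (AT4G19600) a depth of 8.97 with 750 bases. CYCT1;2 (AT4G19560) also had 750 bases, at a depth of 1.34. The shallow and the deep T cyclins with H3K4me3 thus differed in depth more than in the width of the mark. CYCT1;1 (AT1G35440) stood apart from these: it was not listed, had no H3K4me3, and lay wholly under an H3K27me3 domain of 2400 bases on chromosome 1 (13033801 to 13036200). That domain ranked at percentile 92.3 of the list, the highest of the 8 H3K27me3 domains on cyclins. The annotated body of AT1G35440 is the shortest of the 42 at 744 bases.

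In 24 of the 26 cyclins with H3K4me3 (92.3%), a domain began or ended within 300 bases of an end of the gene body. This was near the 90.3% found over all 17671 genes with H3K4me3, and the median distance was 99.5 bases in cyclins and 93 bases in all marked genes. The exceptions were AT1G70210, a D cyclin, at 345 bases and the long B cyclin AT1G34460 at 1141. The distance to the farther end varied with the length of the body, from 202 to 1360 bases in P cyclins and from 2486 to 3871 bases in T cyclins. The reference table used here gives no strand, so the nearer end is not named as the start or the finish of transcription.

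**Figure D4:**
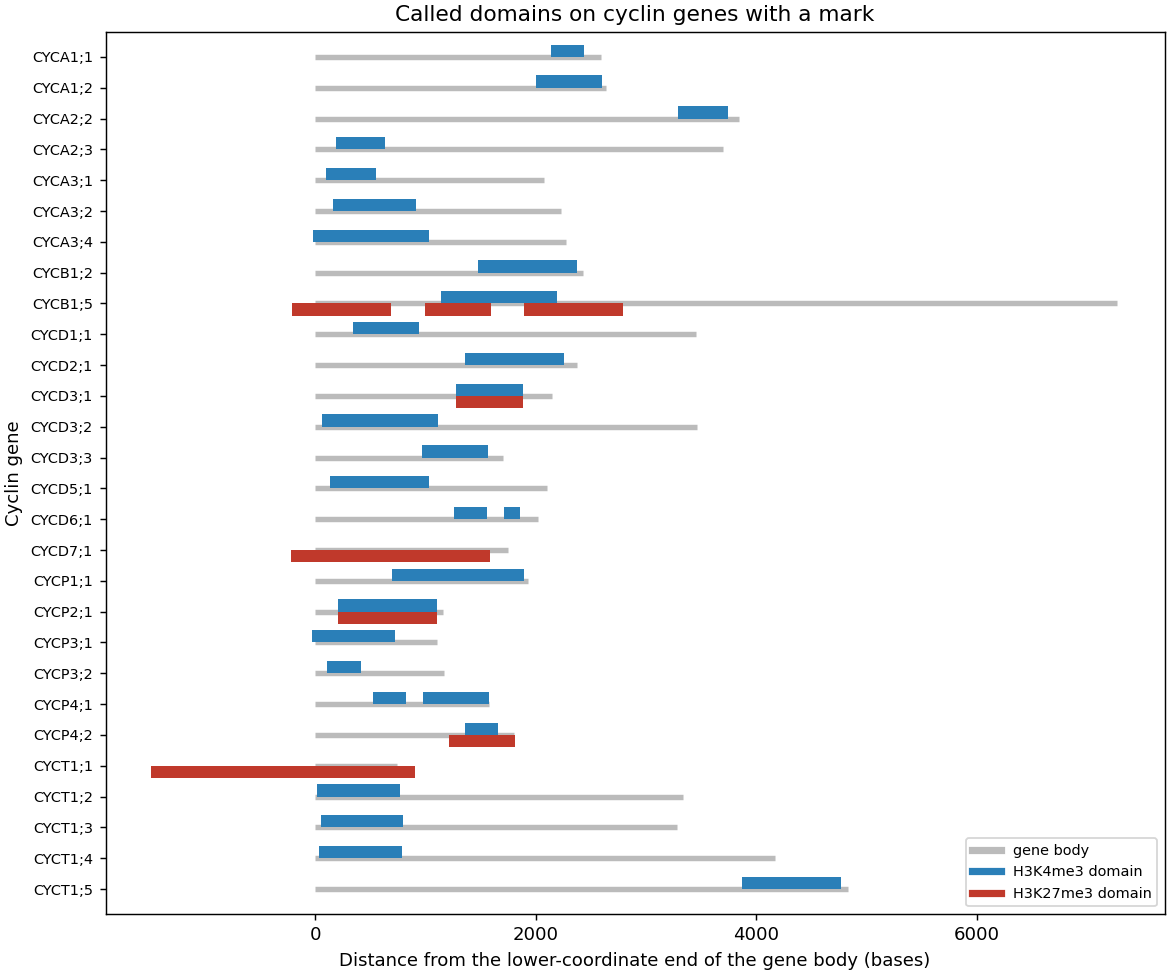
Position of H3K4me3 (blue) and H3K27me3 (red) domains on the 28 cyclins with a mark, as distance in bases from the lower-coordinate end of the gene body (grey). H3K4me3 sits near an end of the body in most genes, and it coincides with H3K27me3 over 600 bases in a CYCD3 gene and over 900 bases in the CYCP2 gene.

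Domain scores are the authors' own values and rank domains within a list. The 28 H3K4me3 domains on cyclins ranked from percentile 2.32 to percentile 84.4 of all H3K4me3 domains, with a median at 30.9. Domains at or above the median score of the H3K4me3 list lay on 8 cyclins, of which 1 was a CYCA3 gene, 3 were D, 2 were P and 2 were T cyclins. They included the deepest D, P and T cyclins and no B cyclin. They also included AT4G37630 at a depth of only 2.38. The deepest A cyclin AT1G47210 (depth 6.55) was not among them, nor were AT1G70210 (10.5), AT3G21870 (9.94) and AT1G27630 (9.91). The same limit for H3K27me3 left 3 cyclins (7.14%, background 21.6%), namely AT1G34460, AT5G02110 and AT1G35440. None of the 42 carried both marks in such domains, against 1.01% of all genes.

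Across the 42 cyclins, bases under H3K4me3 and depth had a Spearman rho of 0.76, with unlisted genes set to 0, and among the 26 with the mark the rho was 0.58. Over all 27444 protein-coding genes and the 17671 with the mark these were 0.76 and 0.45. The points are genes of 1 library and 1 domain list and are not replicates. The 26 cyclins with H3K4me3 were all listed, with a median depth of 4.16. Over all protein-coding genes, 16811 of the 17671 with the mark were listed, so this was near the background. The 16 without it included all 4 unlisted members and no gene above 2.35.

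**Figure D5:**
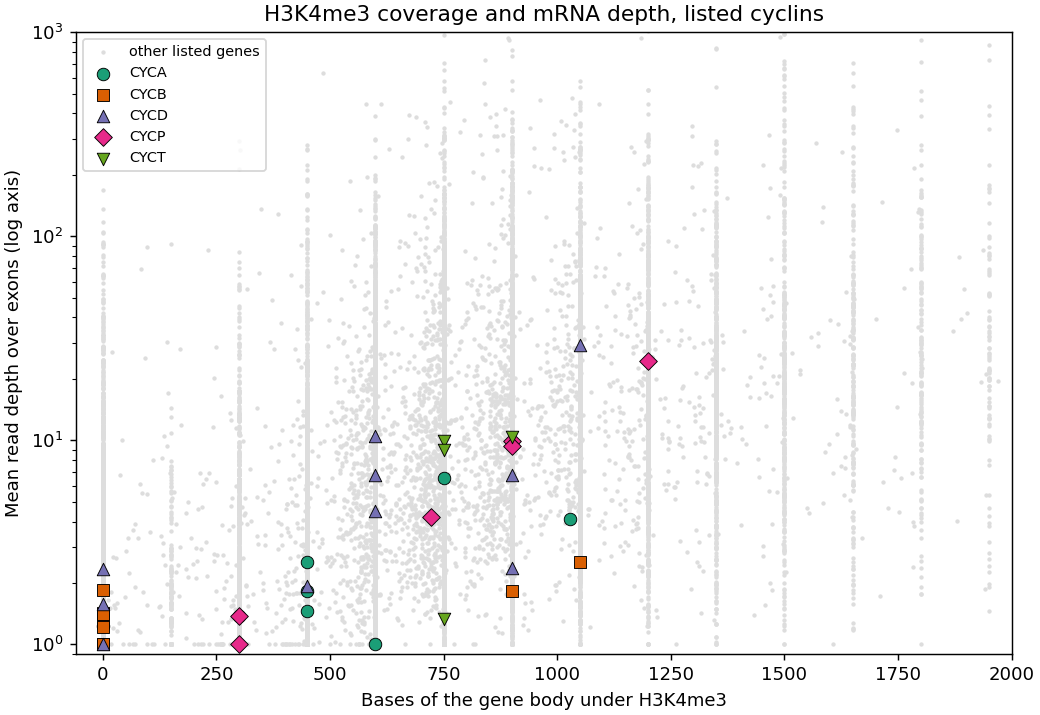
Bases of the gene body under H3K4me3 against mean read depth (log axis) for the 38 listed cyclins, over the other listed genes in grey, of which those with the widest mark or the highest depth fall outside the axes. CYCB genes cluster at 0 bases and low depth, and the highest cyclins lie at 1050 and 1200 bases with depths of 29.5 and 24.6.

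Partners and regulators of cyclins were described from lists of 44 genes written from general knowledge, 5 of which have only a locus and clone names in the reference table. H3K4me3 was on 38 of the 44 and H3K27me3 on 4, each of those with both marks. The shares over all protein-coding genes were 64.4% and 31.0%, and over the listed ones, which include 43 of the 44, they were 84.1% and 18.4%. Of 14 CDK genes, 12 carried H3K4me3. CDKG1 (AT5G63370) was the deepest at 21.2 and carried both marks, and CDKD1;1 (AT1G73690) was the shallowest at 1.00. CDKA1 (AT3G48750), the main cell cycle kinase and partner of A and D cyclins, had a depth of 15.4. The B-type kinases, which act at mitosis, were shallow like the B cyclins. CDKB1;1 (AT3G54180) and CDKB1;2 (AT2G38620) had depths of 1.94 and 1.40 and neither mark. CDKB2;1 (AT1G76540) and CDKB2;2 (AT1G20930) had depths of 2.98 and 1.56 and 300 bases of H3K4me3 each.

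All 9 RBR and E2F genes carried H3K4me3 alone, against 54.2% of all and 73.1% of listed protein-coding genes. They ranged from DEL1 (AT3G48160), an atypical E2F, at a depth of 1.42 to RBR1 (AT3G12280), the retinoblastoma-related protein, at 8.16. Their median of 2.25 was below the D cyclin median. Among 5 activators of the anaphase-promoting complex, which marks mitotic cyclins for destruction, the 3 CCS52 genes carried H3K4me3 and CDC20.1 and CDC20.2 had neither mark. The shares over all protein-coding genes were 64.4% and 14.8%, and over the listed ones 84.1% and 8.48%. CCS52A1 (AT4G22910) was the deepest at 4.47 and CDC20.2 (AT4G33260) the shallowest at 1.59, with CDC20.1 (AT4G33270) at 2.20.

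Of 16 inhibitors of CDKs, 14 carried H3K4me3, a share near the 84.1% of listed protein-coding genes (64.4% of all). SMR1 (AT3G10525), which promotes endoreduplication in giant cells of the epidermis, was the deepest at 37.9, above every cyclin. KRP3 (AT5G48820) was the shallowest listed at 1.00 and carried both marks, as did SIM (AT5G04470, depth 6.39), an inhibitor known from trichomes, and AT5G02420 (depth 1.63). SMR4 (AT5G02220) was not listed and SMR7 (AT3G27630) had a depth of 1.03, and these had neither mark. Of the regulators named here, the 4 B-type kinases, AT1G73690, CDKG1, DEL1, RBR1, SIM and SMR1 overlap another annotated gene.

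Cyclin genes whose names fall outside the rule were read for comparison, chosen after the names in the reference table were seen. CYCH;1 (AT5G27620), partner of the CDK-activating kinase, had a depth of 3.93 and 900 bases of H3K4me3. RCY1 (AT2G26430), the arginine-rich cyclin 1, had a depth of 10.7 and 558 bases. SDS (AT1G14750), a cyclin of meiosis, had the lowest depth of 1.00 and 900 bases of H3K4me3. The meiotic A cyclin AT1G77390 paired that depth with the mark too, but so did AT5G61650, CDKD1;1 and KRP3. Of all genes listed below a depth of 3, 56.2% carried H3K4me3. CYCJ18 (AT2G01905) had a depth of 1.00 and neither mark.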

How the data were processed

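For each mark the authors deposited 1 domain list that serves all samples, with a whole-number score per domain whose unit the sources used here do not state. For mRNA they deposited a coverage signal, the average read depth of a gene's exon bases. Bowtie, SICER and TAIR10 are named in the submitters' processing notes. Settings, the use of input, library size, scaling and strand are not stated in the sources used here. A depth of exactly 1, the lowest value, was given to 7.66% of the loci with mRNA values.

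Gene bodies and names came from the RefSeq gene table of TAIR10.1, of which no coordinate is printed. In 26 windows of 5 Mb the H3K4me3 domains matched these bodies best without a shift (shifts to 10 kb either way, every 50 bases). Deposited ends are the last base counted from 0, so 1 was added to starts and ends. Domains come in steps of 150 bases (H3K4me3) and 300 bases (H3K27me3). Genes that are not listed were set to 0 in class medians. Python 3.11.15 with pandas 2.3.3 was used, and the overlap functions were tested on simulated data.

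Every member is named, with covered bases for the deepest and shallowest of each class and for members outside its most frequent mark class. Of other cell cycle genes, the deepest and shallowest of each list are named, and others that were chosen after their values were seen. Members and lists were chosen with earlier results of these data known. Promoter motifs and protein features, which had been planned, were not analysed here. Alternatives changed the mark call, the gene body, the member rule and the treatment of unlisted genes.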

Additional observations from a re-analysis of the deposited data

How the results depend on the processing

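No paired analysis was possible because each mark has 1 domain list for the whole series and mRNA has 1 sample, and for the same reason no replicate could be left out. Requiring 1 or 300 covered bases in place of 150 changed none of the 6 counts of cyclins by mark. With at least 50% of the body covered, 4 cyclins carried H3K4me3 (background 15.5%) and 3 carried H3K27me3 (background 22.1%), which left 3 with H3K4me3 alone, 1 with both and 36 with neither (background 14.0%, 1.49% and 63.85%), among them all 10 CYCA and all 10 CYCB genes. With only the domains that reach the median score of their list, 8 carried H3K4me3 (background 36.0%) and 3 carried H3K27me3 (background 21.6%), which left 8 with H3K4me3 alone, 0 with both and 31 with neither (background 35.0%, 1.01% and 43.5%), including 9 of 10 CYCA and 9 of 10 CYCB genes. The difference between CYCA and CYCB in the number without a mark was therefore absent under both stricter calls. Under the score limit, the equal numbers came from different marks. H3K4me3 was left on 1 CYCA gene and 0 CYCB genes, and the marked CYCB gene had H3K27me3 alone. H3K4me3 covered at most 45.1% of a CYCA body and 37.1% of a CYCB body, so it could not separate these classes at the 50% limit. With the body extended by 500 bases on both sides, 8 of 10 CYCA and 4 of 10 CYCB genes had H3K4me3 (background 68.2%). All 8 members that overlap another gene carried H3K4me3. The share with H3K4me3 among all 7772 overlapping protein-coding genes was not computed, so no link between overlap and mark can be read from this. Besides those described above, the 8 members include CYCA3;4, CYCD1;1 and CYCD3;1, with overlaps of 46, 144 and 40 bases. Without the 8 members, 18 cyclins carried H3K4me3, 3 carried H3K27me3 and 1 carried both marks. As 4 of the 8 are D cyclins, the D cyclins with H3K4me3 fell from 7 to 3. The D cyclin median depth fell from 3.44 to 2.37. At a depth of at least 2, 18 cyclins were listed. No share over all genes was computed for this depth or without overlapping genes. The CYCP median depth was 6.77 over listed genes only and 6.77 without CYCP4;2, which overlaps another gene, and the CYCT median was 5.15 when CYCT1;5, which is named by a synonym, was left out. Matching names in the letter case of the rule, an alternative chosen after seeing the data, dropped CYCP3;1 and moved no count by more than 1.5 times.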
